A study of Macaca mulatta with 15 samples.

Results

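The 46 genes described here encode parts of the cell cycle machinery, from the regulators of entry into DNA replication to the proteins that end mitosis. They were taken by symbol from a list of 46 names. Each name matched 1 of the 34884 rows of the deposited count table, and all 46 rows passed the filter on low counts. Bulk RNA was measured by RNA-seq in T cell subsets of peripheral blood from 2 rhesus macaques that the series calls healthy, RhM22 and RhDBCb. Both animals were treated with Kleptose HBP, a preparation of 2-hydroxypropyl-beta-cyclodextrin, which is a sugar ring able to take up cholesterol. It was injected under the skin each day, as a 15% (w/w) solution at 1 ml/kg, over a period of at most 120 days. The groups after treatment were CD8 memory, CD4 memory and CD4 naive T cells, with 1 library of each animal, and CD8 naive T cells, with 1 library of RhM22. The groups before treatment were the same 4 subsets, with 1 library of each animal. For RhDBCb the CD8 naive subset after treatment was not analysed here, which leaves 15 libraries from 4 blood draws. An untreated animal sampled over the same period is not among them, so treatment and the passing of time cannot be told apart.

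As background, a resting T cell holds its DNA replication and mitosis genes at low levels and raises them once it enters the cycle. E2F transcription factors then switch on the genes of replication, among them the MCM helicase, PCNA and the enzymes that make deoxynucleotides. Later in the cycle cyclin A, cyclin B and the kinase CDK1 drive the cell into mitosis, in which kinetochore proteins, motor proteins and the anaphase-promoting complex separate the chromosomes. In blood, naive T cells divide rarely, and memory T cells hold a small dividing fraction at any time. A bulk level of such a gene therefore mixes the number of dividing cells with the RNA in each of them, and the 2 cannot be told apart in these libraries.

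The libraries held 44414954 to 71787193 counts and 13525 to 15445 detected genes. Levels are given as CPM, the counts of a gene relative to the library's TMM-scaled total. A count of 0 in a library allows a level of up to 0.0386 to 0.0699 CPM, the worth of 3 counts, which covers counting error only. Lineage markers followed the labels. CD8A and CD8B summed to 894 to 1131 CPM in the 7 CD8 libraries and to 1.46 to 4.38 CPM in the 8 CD4 libraries. CD4 and CD40LG summed to 1.64 to 20.3 CPM in CD8 libraries and to 263 to 585 CPM in CD4 libraries. A list of 8 memory T cell markers summed to 5438 to 9222 CPM in the 8 memory libraries and to 2004 to 3476 CPM in the 7 naive libraries. S100A4, ANXA1, ITGB1, GZMK and KLRB1 separated memory from naive libraries within each lineage. CCL5 overlapped in CD8 cells, PRDM1 in CD4 cells and IL7R in both. In RhDBCb before treatment CCL5 had 252 CPM in CD8 naive and 135 CPM in CD8 memory cells. GZMK had 140 CPM in that CD8 naive library, against 28.7 and 21.3 CPM in those of RhM22 before and after treatment. The naive markers separated the subsets within the CD8 lineage, at 3956 to 7000 CPM in memory and 9284 to 13613 CPM in naive cells. Within the CD4 lineage they overlapped, at 7467 to 11171 CPM in memory and 8531 to 20730 CPM in naive cells. B cell markers were highest in CD8 naive cells, at 67.0 to 112 CPM against 16.2 to 38.6 CPM in the other 12 libraries, and natural killer cell markers in CD8 memory cells, at 20.01 to 65.6 CPM against 0.161 to 12.3 CPM elsewhere. Plasmablast markers, from a cell type that divides, summed to at most 3.05 CPM in any library. How the subsets were separated is not given in the sources used here. Before treatment 2 libraries of RhDBCb stood apart for many of the cell cycle genes. The CD8 memory library before treatment held the highest level of 39 of the 46 genes, against 11.8% of all 14814 genes tested. The CD4 naive library before treatment held the fewest detected genes of the series, 13525, and had 0 counts for 6 of the 46. The main counts and medians that rest on either one are also given without it.

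Per unit of gene length the most abundant of the 46 was PCNA, the sliding clamp of the replication fork, with a median of 11.5 FPKM over the 15 libraries. RRM1, the large subunit of ribonucleotide reductase, followed at 6.70 FPKM. Of the MCM helicase subunits, MCM7 had a median of 3.79 FPKM, MCM6 2.56 FPKM, MCM4 2.13 FPKM and MCM3 1.42 FPKM. CCNB1, encoding cyclin B1, had 1.68 FPKM, RRM2, the small subunit of ribonucleotide reductase, 1.17 FPKM, and ZWINT, a kinetochore protein, 1.10 FPKM. These 9 were the genes with a median of at least 1 FPKM, and the replication genes among them outnumbered the mitotic ones. The lowest medians were those of the mitotic genes ASPM, BUB1B and HMMR, at 0.000284, 0.00274 and 0.00422 FPKM.

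The 46 genes split into a steady group and a variable one. RRM1 ranged from 228 to 351 CPM over the 15 libraries, CCNB1 from 13.2 to 23.6 CPM, PCNA from 122 to 297 CPM and MCM6 from 63.5 to 157 CPM. The highest library exceeded the lowest by 1.54 times for RRM1, 1.80 times for CCNB1, 2.43 times for PCNA and 2.47 times for MCM6. At the other end, TYMS, the thymidylate synthase, had 0.0132 CPM, or 1 count, in its lowest library and 28.1 CPM in its highest. RRM2 had 0.0699 CPM, or 3 counts, in its lowest and 109 CPM in its highest library, and MKI67, the proliferation antigen Ki-67, 0.143 CPM, or 7 counts, and 112 CPM. The highest library of all 3 was the CD8 memory library of RhDBCb before treatment, and without it the highest levels were 6.38, 30.5 and 19.9 CPM for TYMS, RRM2 and MKI67. Cyclin B1 RNA thus varied little between libraries, unlike that of its relative CCNB2, which ranged from 0 to 8.38 CPM. The mean level was highest in CD8 memory cells for 40 of the 46 genes and in CD4 memory cells for the other 6, which were RRM1, ZWINT, TOP2A, KIF2C, AURKA and TPX2. That order rested on the CD8 memory library of RhDBCb before treatment. Without it the mean was highest in CD8 memory cells for 15 genes, in CD4 memory cells for 30, among them MKI67, RRM2, TYMS and MCM2, and in CD8 naive cells for PLK1. The map of all 46 genes over the 15 libraries shows the steady and the variable group.

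**Figure D1:**
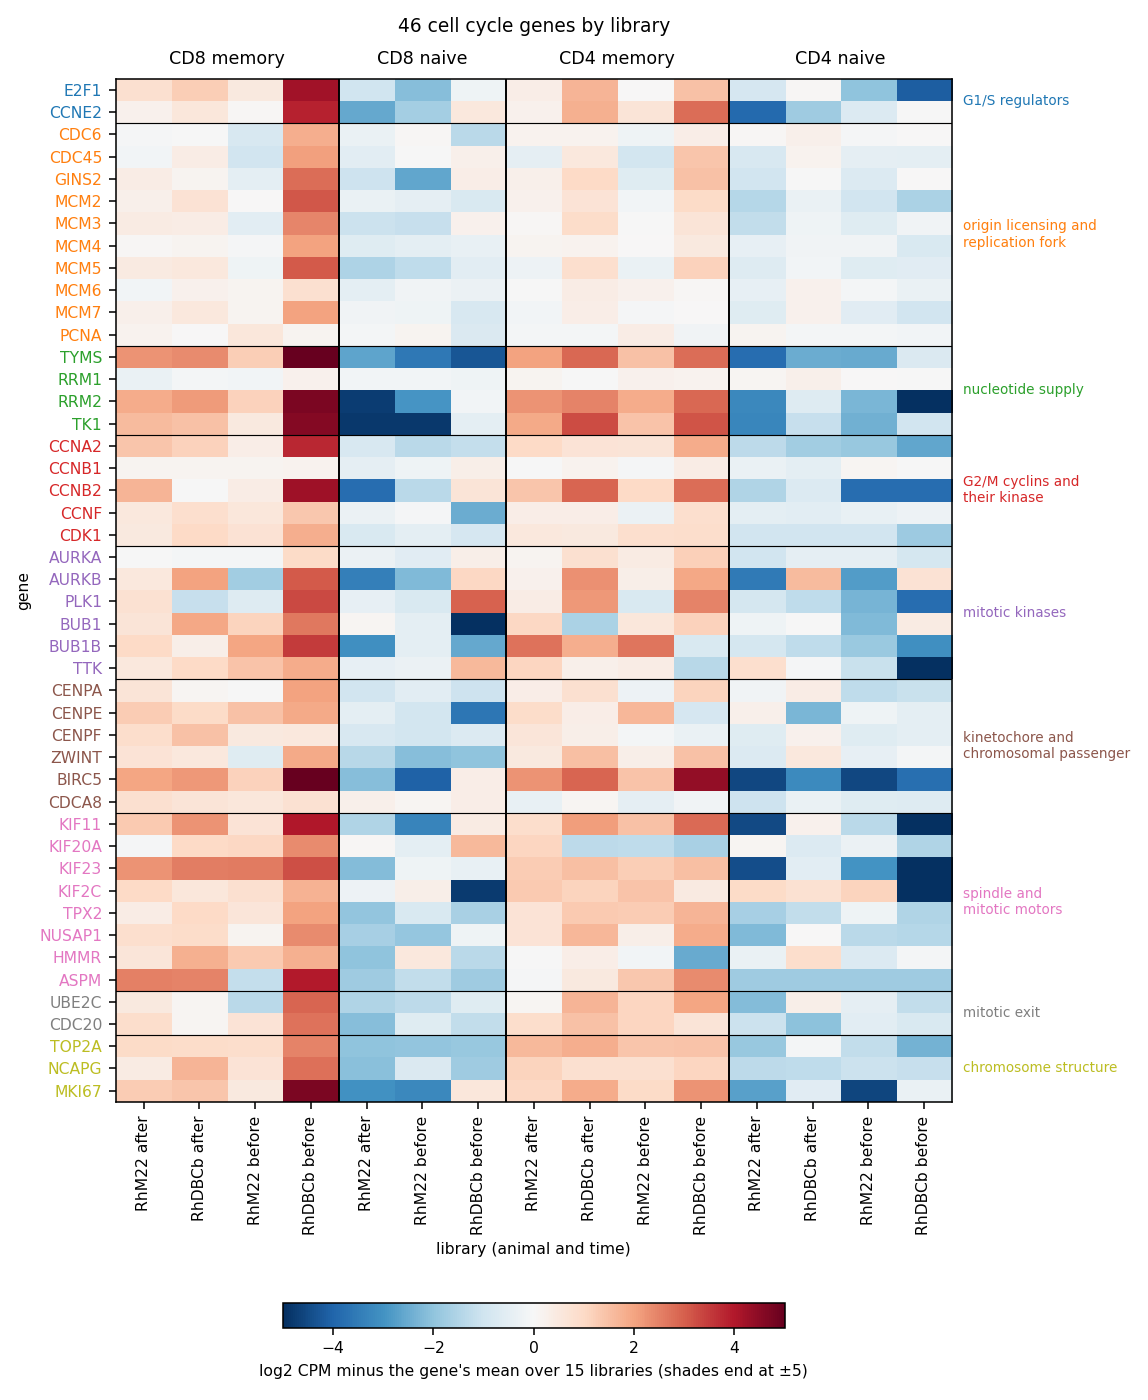
Level of each of the 46 genes (rows, grouped by role) in each of the 15 libraries (columns, CD8 memory, CD8 naive, CD4 memory and CD4 naive from left to right, each after and then before treatment, RhM22 and then RhDBCb), as log2 CPM minus the gene's mean over the 15 libraries. Memory columns are above the mean for most genes, the CD8 memory column of RhDBCb before treatment is the highest for 39 of the 46, and RRM1, CCNB1, PCNA and MCM6 hardly vary.

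The first comparison set memory against naive cells within each lineage. In CD8 cells 23 of the 46 genes were higher in memory than in naive cells and 0 were lower, at an edgeR adjusted p under 0.05 over all genes tested. Over all 14814 genes the same test called 8.1% higher, 5.39% lower and 13.5% in either direction. In CD4 cells 18 were higher and 0 lower, against 5.22% higher, 3.16% lower and 8.38% in either direction over all genes. The median log2 fold change of the 46 was 2.23 in CD8 and 1.35 in CD4 cells, where all genes tested had medians of 0.03 and -0.03. All 46 estimates lay above 0 in CD8 cells and 45 in CD4 cells, the exception being HMMR at -0.37 (SE 1.07, adjusted p = 0.885). By both tests 16 genes were called. Another 7 passed in CD8 cells alone, namely E2F1, MCM3, MCM5, BUB1B, CENPE, CENPF and ZWINT, another 2 passed in CD4 cells alone, CCNB2 and AURKA, and 21 passed in neither. The p-values here and below measure the spread between libraries of only 2 animals.

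The levels in memory and naive libraries did not overlap for 30 of the 46 genes in CD8 cells, all higher in memory, against 11.3% of all genes higher and 9.6% lower. In CD4 cells 23 did not overlap, all higher in memory, against 6.32% of all genes higher and 4.35% lower. The genes are taken below in the order of their roles. Estimates are log2 fold changes of memory over naive cells with their SE. In each pair of values the first is RhM22 and the second RhDBCb, and CD8 naive cells after treatment have the value of RhM22 alone.

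**Figure D2:**
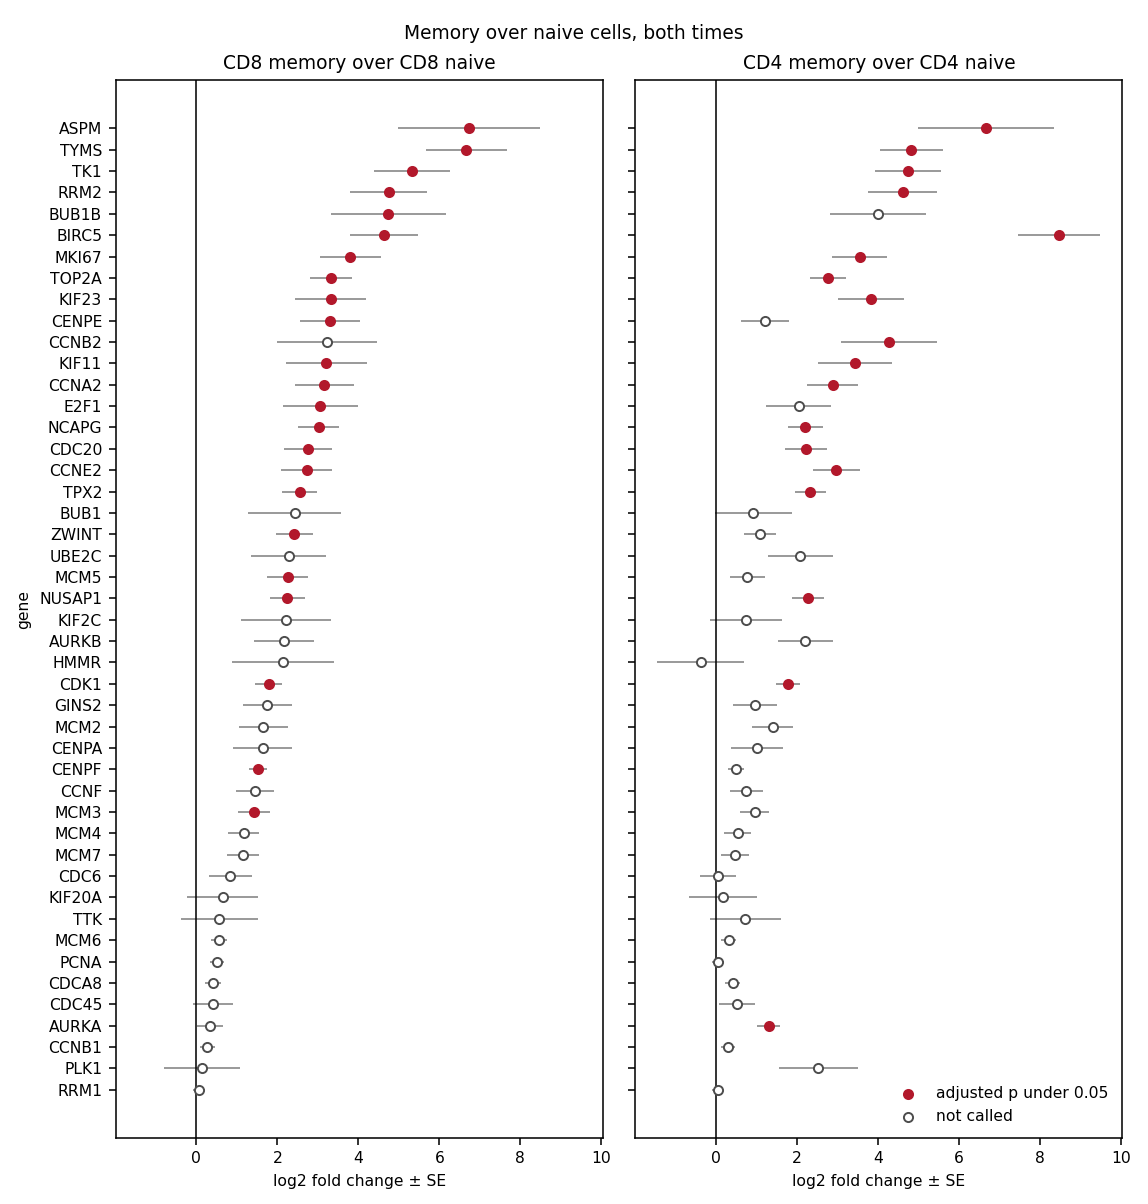
Log2 fold change of memory over naive cells for the 46 genes, in CD8 cells on the left and CD4 cells on the right, with bars of 1 SE from the edgeR test. Red points mark the 23 genes called in CD8 and the 18 in CD4 cells at an adjusted p under 0.05; nucleotide supply, chromosome structure and motor genes lie far to the right, and RRM1, PCNA and CDC6 near 0.

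Both regulators of entry into replication were called in CD8 cells. E2F1, the transcription factor that switches on replication genes, had 1.64 and 2.22 CPM after and 1.3003 and 17.8 CPM before treatment in CD8 memory cells, against 0.447 CPM after and 0.187 and 0.795 CPM before treatment in CD8 naive cells. In the other lineage E2F1 had 1.179 and 3.12 CPM after and 0.945 and 2.62 CPM before treatment in CD4 memory cells, against 0.498 and 0.979 CPM after and 0.204 and 0.0233 CPM before treatment in CD4 naive cells. Memory and naive levels did not overlap in CD8 cells and overlapped in CD4 cells, where RhDBCb after treatment had 0.979 CPM in naive cells and RhM22 before treatment had 0.945 CPM in memory cells. The log2 fold change was 3.06 (SE 0.93, edgeR adjusted p = 0.0423) in CD8 and 2.05 (SE 0.81, adjusted p = 0.141) in CD4 cells. CCNE2, or cyclin E2, which activates CDK2 at the start of replication, had 1.36 and 1.72 CPM after and 1.19 and 16.8 CPM before treatment in CD8 memory cells, against 0.168 CPM after and 0.330 and 1.68 CPM before treatment in CD8 naive cells. Its levels were 1.34 and 4.06 CPM after and 1.81 and 8.10 CPM before treatment in CD4 memory cells, against 0.0482 and 0.309 CPM after and 0.713 and 1.12 CPM before treatment in CD4 naive cells. Memory cells were above naive cells in every draw of both lineages, although the CD8 naive level of RhDBCb before treatment exceeded the CD8 memory levels of RhM22. CCNE2 rose by 2.73 (SE 0.62, edgeR adjusted p = 0.00975) in CD8 and by 2.97 (SE 0.57, adjusted p = 0.00487) in CD4 cells. Without the CD8 memory library of RhDBCb before treatment, the CD8 estimates of E2F1 and CCNE2 were 1.75 and 2.15 and no longer called. The E2F1 call was lost in 10 of the 15 fits that left out 1 library.

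Of the 10 genes that license replication origins and run the fork, 2 were called in CD8 cells and 0 in CD4 cells, with median log2 fold changes of 1.16 and 0.53. The MCM genes encode the subunits of the replicative helicase. MCM5 had 33.9 and 35.8 CPM after and 21.4 and 208 CPM before treatment in CD8 memory cells, against 8.49 CPM after and 10.2 and 16.9 CPM before treatment in CD8 naive cells. In CD4 cells MCM5 had 20.7 and 43.5 CPM after and 19.7 and 55.2 CPM before treatment in CD4 memory cells, against 15.7 and 22.1 CPM after and 16.3 and 16.5 CPM before treatment in CD4 naive cells. The CD8 groups did not overlap, and the CD4 groups did, through the naive library of RhDBCb after treatment at 22.1 CPM. MCM5 rose by 2.25 (SE 0.50, edgeR adjusted p = 0.00816) in CD8 cells, and its CD4 estimate was 0.78 (SE 0.43, adjusted p = 0.303). MCM3 had 37.0 and 36.0 CPM after and 19.6 and 152 CPM before treatment in CD8 memory cells, against 13.3 CPM after and 12.5 and 32.9 CPM before treatment in CD8 naive cells. Its CD4 levels were 28.8 and 52.3 CPM after and 27.8 and 43.3 CPM before treatment in CD4 memory cells, against 11.8 and 24.1 CPM after and 18.4 and 24.9 CPM before treatment in CD4 naive cells. The CD8 ranges crossed between the animals, RhDBCb having more in naive cells than RhM22 had in memory cells before treatment, while the CD4 groups did not overlap. MCM3 rose by 1.42 (SE 0.40, adjusted p = 0.0282) in CD8 cells and had an estimate of 0.96 (SE 0.35, adjusted p = 0.116) in CD4 cells.

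MCM2 had 18.6 and 25.7 CPM after and 15.9 and 137 CPM before treatment in CD8 memory cells, against 12.6 CPM after and 11.5 and 9.21 CPM before treatment in CD8 naive cells. In CD4 cells MCM2 lay at 18.3 and 25.4 CPM after and 14.4 and 30.4 CPM before treatment in CD4 memory cells, against 5.92 and 12.7 CPM after and 8.21 and 5.22 CPM before treatment in CD4 naive cells. All memory levels were above all naive levels in both lineages, yet the estimates of 1.66 (SE 0.59, edgeR adjusted p = 0.0803) in CD8 and 1.40 (SE 0.51, adjusted p = 0.109) in CD4 cells did not pass. MCM7 had 38.4 and 46.1 CPM after and 34.6 and 128 CPM before treatment in CD8 memory cells, against 28.0 CPM after and 27.0 and 18.4 CPM before treatment in CD8 naive cells. Its CD4 levels were 29.2 and 39.6 CPM after and 30.9 and 32.1 CPM before treatment in CD4 memory cells, against 20.8 and 36.9 CPM after and 21.3 and 16.3 CPM before treatment in CD4 naive cells. Memory was above naive in all 7 draws for MCM7, with no overlap in CD8 cells, and the estimates were 1.15 (SE 0.40, edgeR adjusted p = 0.0743) and 0.47 (SE 0.35, adjusted p = 0.461) in CD8 and CD4 cells. MCM4 and MCM6, whose CD8 groups also did not overlap, had estimates of 1.17 (SE 0.38, adjusted p = 0.056) and 0.56 (SE 0.20, adjusted p = 0.0812) in CD8 cells.

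PCNA had 229 and 208 CPM after and 297 and 224 CPM before treatment in CD8 memory cells, against 189.5 CPM after and 224 and 122 CPM before treatment in CD8 naive cells. PCNA lay at 192 and 189 CPM after and 262 and 181 CPM before treatment in CD4 memory cells, against 224 and 189 CPM after and 189.6 and 183 CPM before treatment in CD4 naive cells. Memory and naive levels of PCNA overlapped in both lineages, and the estimates were 0.51 (SE 0.17, edgeR adjusted p = 0.0567) in CD8 and 0.06 (SE 0.15, adjusted p = 0.874) in CD4 cells. CDC6, which loads the helicase onto origins, had 8.02 and 8.40 CPM after and 4.89 and 30.0 CPM before treatment in CD8 memory cells, against 6.71 CPM after and 8.82 and 3.26 CPM before treatment in CD8 naive cells. CDC6 lay in CD4 cells at 9.49 and 9.60 CPM after and 7.21 and 10.5 CPM before treatment in CD4 memory cells, against 8.73 and 10.0 CPM after and 8.05 and 8.55 CPM before treatment in CD4 naive cells. The CD4 naive and CD4 memory ranges of CDC6 lay within each other, with estimates of 0.84 (SE 0.52, edgeR adjusted p = 0.323) in CD8 and 0.05 (SE 0.44, adjusted p = 0.971) in CD4 cells. CDC45 and GINS2, partners of the helicase at the fork, ranged from 1.20 to 10.1 CPM and from 0.230 to 10.9 CPM over the 15 libraries and were called in neither lineage.

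The enzymes of nucleotide supply gave the highest median log2 fold change of any role, 5.03 in CD8 and 4.68 in CD4 cells, with 3 of 4 called in both lineages. RRM2, whose product limits the supply of deoxynucleotides, had 15.4 and 18.2 CPM after and 9.40 and 109 CPM before treatment in CD8 memory cells, against 0.126 CPM after and 0.517 and 3.75 CPM before treatment in CD8 naive cells. In CD4 cells its levels were 19.9 and 23.7 CPM after and 15.3 and 30.5 CPM before treatment in CD4 memory cells, against 0.417 and 2.67 CPM after and 0.835 and 0.0699 CPM before treatment in CD4 naive cells. The groups were far apart in both lineages and did not overlap. RRM2 rose by 4.75 (SE 0.96, edgeR adjusted p = 0.00444) in CD8 and by 4.61 (SE 0.85, adjusted p = 0.00362) in CD4 cells. TYMS, which makes thymidylate, had 4.21 and 4.58 CPM after and 2.06 and 28.1 CPM before treatment in CD8 memory cells, against 0.112 CPM after and 0.0431 and 0.0132 CPM before treatment in CD8 naive cells. Its CD4 levels were 3.52 and 6.38 CPM after and 2.44 and 6.16 CPM before treatment in CD4 memory cells, against 0.0321 and 0.129 CPM after and 0.122 and 0.513 CPM before treatment in CD4 naive cells. Every memory level was above every naive level in each lineage. TYMS rose by 6.67 (SE 1.00, edgeR adjusted p = 0.000606) in CD8 and by 4.82 (SE 0.78, adjusted p = 0.00137) in CD4 cells.

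TK1, the thymidine kinase of replicating cells, had 2.68 and 2.50 CPM after and 1.25 and 21.9 CPM before treatment in CD8 memory cells, against 0 CPM after and 0 and 0.623 CPM before treatment in CD8 naive cells. In CD4 cells TK1 had 3.39 and 8.75 CPM after and 2.44 and 8.01 CPM before treatment in CD4 memory cells, against 0.0642 and 0.373 CPM after and 0.143 and 0.443 CPM before treatment in CD4 naive cells. It was not detected in the CD8 naive cells of RhM22 at either time, and no naive level reached a memory level. TK1 rose by 5.32 (SE 0.94, edgeR adjusted p = 0.00191) in CD8 and by 4.75 (SE 0.81, adjusted p = 0.00209) in CD4 cells. RRM1 was the exception of this role. It ranged from 228 to 336 CPM in CD8 memory and from 251 to 268 CPM in CD8 naive cells, and its estimates were 0.07 (SE 0.15, edgeR adjusted p = 0.793) in CD8 and 0.04 (SE 0.13, adjusted p = 0.9) in CD4 cells. The subunits of the same enzyme therefore differed, RRM2 being called in both lineages and RRM1 in neither.

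Of the G2/M cyclins and CDK1, 2 of 5 were called in CD8 and 3 of 5 in CD4 cells. CDK1, the kinase that starts mitosis, had 9.13 and 13.3 CPM after and 11.0 and 23.1 CPM before treatment in CD8 memory cells, against 3.89 CPM after and 4.67 and 3.67 CPM before treatment in CD8 naive cells. In CD4 cells CDK1 had 9.45 and 9.14 CPM after and 11.9 and 12.1 CPM before treatment in CD4 memory cells, against 3.42 and 3.35 CPM after and 3.42 and 1.86 CPM before treatment in CD4 naive cells. The groups did not overlap in either lineage. CDK1 rose by 1.78 (SE 0.33, edgeR adjusted p = 0.00269) in CD8 and by 1.79 (SE 0.30, adjusted p = 0.00166) in CD4 cells, and both calls held in all 15 fits that left out 1 library. CCNA2, or cyclin A2, had 5.30 and 4.42 CPM after and 2.50 and 27.7 CPM before treatment in CD8 memory cells, against 1.13 CPM after and 0.761 and 0.848 CPM before treatment in CD8 naive cells. CCNA2 had 3.95 and 3.24 CPM after and 3.14 and 7.19 CPM before treatment in CD4 memory cells, against 0.787 and 0.579 CPM after and 0.509 and 0.303 CPM before treatment in CD4 naive cells. It too had no overlap, and it rose by 3.16 (SE 0.73, edgeR adjusted p = 0.0104) in CD8 and by 2.88 (SE 0.64, adjusted p = 0.0119) in CD4 cells.

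CCNB1 had 19.95 and 20.2 CPM after and 19.998 and 20.8 CPM before treatment in CD8 memory cells, against 13.6 CPM after and 15.8 and 22.3 CPM before treatment in CD8 naive cells. The CD4 levels were 18.1 and 20.6 CPM after and 17.7 and 23.6 CPM before treatment in CD4 memory cells, against 14.4 and 13.2 CPM after and 19.7 and 18.2 CPM before treatment in CD4 naive cells. Its memory and naive levels overlapped in both lineages, with estimates of 0.27 (SE 0.18, edgeR adjusted p = 0.37) and 0.29 (SE 0.17, adjusted p = 0.326) in CD8 and CD4 cells. CCNB2 was called in CD4 cells, at 4.27 (SE 1.19, adjusted p = 0.0388), with 27 counts in all 4 naive libraries together, and 9 of the 15 fits that left out 1 library lost the call. CCNF, the cyclin F subunit of a ubiquitin ligase, ranged from 12.3 to 21.8 CPM in CD8 memory and from 1.48 to 8.30 CPM in CD8 naive cells. Its CD8 groups did not overlap, but the estimate of 1.45 (SE 0.48, edgeR adjusted p = 0.0589) did not pass.

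Of the mitotic kinases 1 of 6 was called in each lineage. PLK1, which acts from mitotic entry to cytokinesis, had 2.98 and 0.757 CPM after and 1.10 and 17.3 CPM before treatment in CD8 memory cells, against 1.3005 CPM after and 1.02 and 13.8 CPM before treatment in CD8 naive cells. In CD4 cells PLK1 had 2.27 and 7.91 CPM after and 1.02 and 9.96 CPM before treatment in CD4 memory cells, against 0.947 and 0.695 CPM after and 0.326 and 0.0932 CPM before treatment in CD4 naive cells. The CD8 naive library of RhDBCb before treatment was far above the other CD8 naive libraries and above every CD8 memory library but that of the same draw. The CD4 groups did not overlap. The estimates were 0.13 (SE 0.94, edgeR adjusted p = 0.955) in CD8 and 2.52 (SE 0.98, adjusted p = 0.135) in CD4 cells. BUB1B, a kinase-related protein of the spindle checkpoint, rose in CD8 cells by 4.74 (SE 1.42, adjusted p = 0.0399), with 0.293 to 2.94 CPM in memory and 0 to 0.158 CPM in naive cells. AURKA, the centrosome kinase Aurora A, rose in CD4 cells by 1.299 (SE 0.29, adjusted p = 0.0128), with 3.15 to 6.62 CPM in memory and 1.46 to 2.10 CPM in naive cells. AURKB, the kinase of the chromosomal passenger complex, and the checkpoint kinases BUB1 and TTK passed in neither lineage.

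Among the kinetochore and chromosomal passenger genes 4 of 6 were called in CD8 and 1 of 6 in CD4 cells. BIRC5, or survivin, a subunit of the chromosomal passenger complex, had 2.94 and 3.36 CPM after and 1.66 and 35.9 CPM before treatment in CD8 memory cells, against 0.140 CPM after and 0.0144 and 0.927 CPM before treatment in CD8 naive cells. It had 3.58 and 5.59 CPM after and 1.97 and 15.9 CPM before treatment in CD4 memory cells, against 0 and 0.0515 CPM after and 0 and 0.0233 CPM before treatment in CD4 naive cells. In CD4 naive cells BIRC5 was close to absent, with 1 count before and 4 counts after treatment, all in RhDBCb, and neither lineage had overlapping groups. BIRC5 rose by 4.63 (SE 0.84, edgeR adjusted p = 0.00226) in CD8 and by 8.47 (SE 1.01, adjusted p = 0.000138) in CD4 cells, where its log2 fold change was the highest of the 46. ZWINT, which ties the kinetochore to its checkpoint, had 5.22 and 4.65 CPM after and 2.09 and 12.1 CPM before treatment in CD8 memory cells, against 1.20 CPM after and 0.718 and 0.768 CPM before treatment in CD8 naive cells. ZWINT had 4.54 and 9.23 CPM after and 3.93 and 8.96 CPM before treatment in CD4 memory cells, against 2.01 and 4.73 CPM after and 2.42 and 3.03 CPM before treatment in CD4 naive cells. The CD8 groups did not overlap, and the CD4 groups did. ZWINT rose by 2.42 (SE 0.46, edgeR adjusted p = 0.00309) in CD8 cells, and the CD4 estimate was 1.09 (SE 0.39, adjusted p = 0.101).

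CENPF, a large kinetochore protein, had 52.8 and 78.3 CPM after and 40.2 and 41.2 CPM before treatment in CD8 memory cells, against 16.5 CPM after and 15.2 and 17.6 CPM before treatment in CD8 naive cells. CENPF lay at 43.4 and 35.2 CPM after and 26.8 and 22.8 CPM before treatment in CD4 memory cells, against 19.0 and 33.1 CPM after and 18.8 and 20.3 CPM before treatment in CD4 naive cells. All CD8 memory libraries were above all CD8 naive libraries, with the smallest adjusted p of the 46, and the CD4 groups overlapped. CENPF rose by 1.52 (SE 0.22, edgeR adjusted p = 0.000459) in CD8 cells, and the CD4 estimate was 0.49 (SE 0.19, adjusted p = 0.136). CENPE, a kinetochore motor, rose in CD8 cells by 3.29 (SE 0.74, adjusted p = 0.00843), with 2.31 to 4.53 CPM in memory and 0.0662 to 0.839 CPM in naive cells. CENPA, the histone variant of centromeres, and CDCA8, or borealin, another passenger subunit, were called in neither lineage.

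Of the spindle and motor genes 5 of 8 were called in CD8 and the same 5 in CD4 cells, namely TPX2, NUSAP1, KIF23, KIF11 and ASPM. TPX2, a spindle assembly factor that activates Aurora A, ranged from 4.42 to 13.7 CPM in CD8 memory and from 0.839 to 1.98 CPM in CD8 naive cells, and rose by 2.55 (SE 0.43, edgeR adjusted p = 0.00148). In CD4 cells it ranged from 5.56 to 11.2 CPM in memory and from 1.06 to 2.95 CPM in naive cells, and rose by 2.33 (SE 0.38, edgeR adjusted p = 0.00138). NUSAP1, which bundles spindle microtubules, rose by 2.24 (SE 0.43, adjusted p = 0.00312) in CD8 and 2.27 (SE 0.38, adjusted p = 0.00194) in CD4 cells. KIF23, a motor of the central spindle, ranged from 6.47 to 13.0 CPM in CD8 memory and from 0.280 to 1.16 CPM in CD8 naive cells, and rose by 3.31 (SE 0.87, adjusted p = 0.0207) in CD8 and 3.82 (SE 0.82, adjusted p = 0.0097) in CD4 cells. KIF11, the motor that pushes spindle poles apart, rose by 3.21 (SE 0.99, adjusted p = 0.0459) and 3.43 (SE 0.91, adjusted p = 0.0312) in CD8 and CD4 cells, and leaving out 1 library ended its CD8 call in 11 of 15 fits and its CD4 call in 5 of 15. ASPM, a spindle pole protein, had 167 counts over the 4 CD8 memory libraries and 1 count over the 3 CD8 naive ones, a ratio of 154 with a 95% counting interval from 27.3 to 6130. In CD4 cells ASPM had 59 counts in memory and 0 in naive cells, at least 17.8-fold higher for a floor of 3 counts over the naive group, and the calls had adjusted p of 0.0269 in CD8 and 0.0322 in CD4 cells. KIF20A, KIF2C and HMMR passed in neither lineage. KIF2C, which takes apart microtubule ends, had 1 and 11 counts in the CD4 naive and CD8 naive libraries of RhDBCb before treatment and 296 to 961 counts in each of the other 13 libraries.

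The mitotic exit genes encode partners of the anaphase-promoting complex. UBE2C, its ubiquitin-conjugating enzyme, had 0.370 and 0.275 CPM after and 0.0823 and 2.17 CPM before treatment in CD8 memory cells, against 0.0699 CPM after and 0.0861 and 0.159 CPM before treatment in CD8 naive cells. In CD4 cells UBE2C had 0.280 and 0.910 CPM after and 0.579 and 1.10 CPM before treatment in CD4 memory cells, against 0.0321 and 0.322 CPM after and 0.183 and 0.0932 CPM before treatment in CD4 naive cells. It was low throughout, the groups overlapped in both lineages, and the estimates were 2.27 (SE 0.93, edgeR adjusted p = 0.124) in CD8 and 2.08 (SE 0.80, adjusted p = 0.134) in CD4 cells. CDC20, the activator of that complex, ranged from 1.79 to 11.3 CPM in CD8 memory and from 0.364 to 1.09 CPM in CD8 naive cells. CDC20 rose by 2.76 (SE 0.60, edgeR adjusted p = 0.00693) in CD8 and by 2.23 (SE 0.52, adjusted p = 0.0156) in CD4 cells.

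All 3 genes of chromosome structure were called in both lineages. MKI67, whose product coats mitotic chromosomes, had 10.1 and 11.0 CPM after and 5.94 and 112 CPM before treatment in CD8 memory cells, against 0.489 CPM after and 0.416 and 6.19 CPM before treatment in CD8 naive cells. MKI67 had 8.58 and 15.5 CPM after and 8.21 and 19.9 CPM before treatment in CD4 memory cells, against 0.610 and 2.79 CPM after and 0.143 and 3.36 CPM before treatment in CD4 naive cells. The CD4 groups did not overlap. In CD8 cells the RhM22 memory library before treatment lay just under the RhDBCb naive library of that time, so the groups overlapped by 1 pair. MKI67 rose by 3.80 (SE 0.75, edgeR adjusted p = 0.00372) in CD8 and by 3.55 (SE 0.68, adjusted p = 0.00447) in CD4 cells. TOP2A, the topoisomerase that untangles replicated DNA, had 13.8 and 13.4 CPM after and 13.2 and 40.5 CPM before treatment in CD8 memory cells, against 1.75 CPM after and 1.79 and 1.88 CPM before treatment in CD8 naive cells. TOP2A had 22.3 and 25.6 CPM after and 18.6 and 19.4 CPM before treatment in CD4 memory cells, against 1.88 and 6.73 CPM after and 3.04 and 1.35 CPM before treatment in CD4 naive cells. Neither lineage had overlapping levels, and TOP2A rose by 3.32 (SE 0.52, edgeR adjusted p = 0.000849) in CD8 and by 2.77 (SE 0.45, adjusted p = 0.00137) in CD4 cells. NCAPG, a condensin subunit, rose by 3.02 (SE 0.52, adjusted p = 0.00153) and 2.21 (SE 0.43, adjusted p = 0.00508) in CD8 and CD4 cells.

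**Figure D3:**
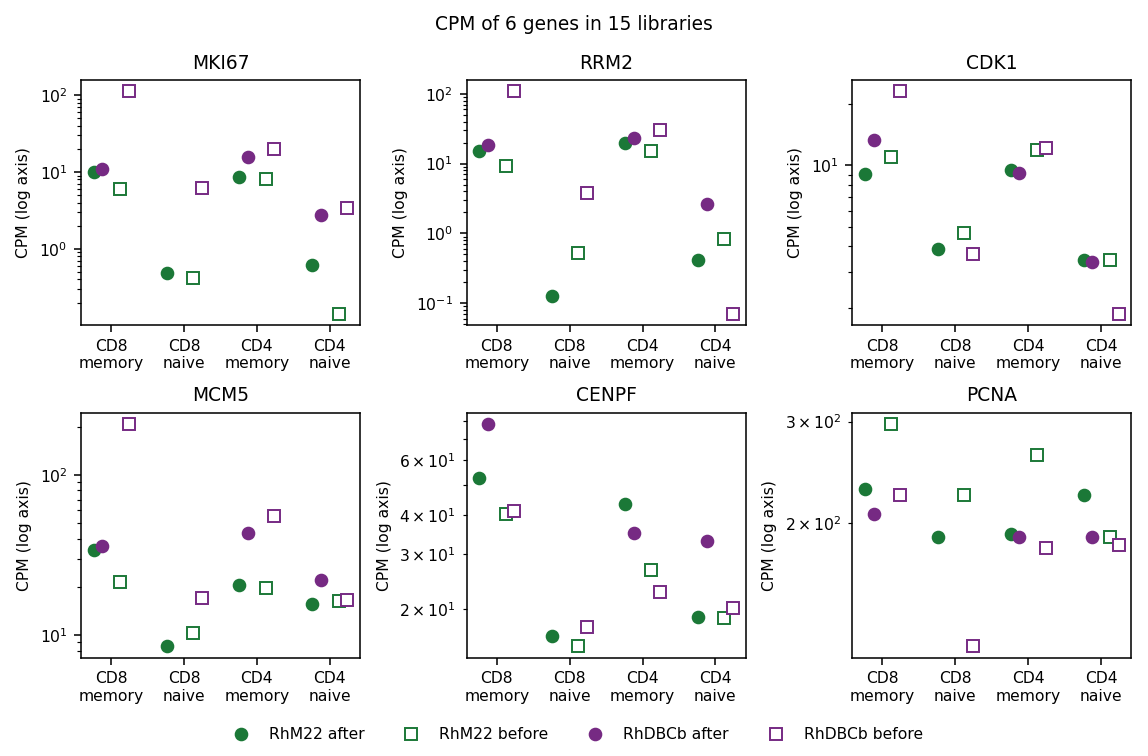
CPM, on a log axis, of MKI67, RRM2, CDK1, MCM5, CENPF and PCNA in each library, by subset, with memory left of naive and after left of before treatment and 1 point per animal. Memory and naive points do not overlap in either lineage for RRM2 and CDK1, while PCNA lies between 122 and 297 CPM everywhere.

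The direction held within single blood draws. Of the 46 genes, 36 were higher in the memory than in the naive library of the same draw in all 7 such comparisons. The share of all genes higher in all 7 was not counted. In single comparisons 41 to 45 of the 46 were higher in memory, against 6782 to 7840 of the 14814 genes tested. In CD8 cells the median log2 ratio over the 46 was 1.77 in RhM22 after treatment, 1.33 in RhM22 before and 3.55 in RhDBCb before treatment. In CD4 cells it was 1.23 and 1.179 after treatment and 1.49 and 2.23 before treatment, RhM22 first in each pair. The median over all genes was 0 in each draw.

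The number of calls depended on single libraries and on the animal. Without the CD8 memory library of RhDBCb before treatment, 17 of the 46 were called in CD8 cells, against 6.34% of all genes higher, the median was 1.67 and 41 estimates were above 0. The 6 calls lost were those of E2F1, CCNE2, MCM3, BUB1B, KIF11 and ASPM. Without the CD8 naive library of that draw 15 were called, against 5.41%. In CD4 cells, 16 were called without the CD4 naive library of RhDBCb before treatment, against 4.18%, with a median of 1.43 and 42 estimates above 0. RhM22 alone gave 22 calls in CD8 cells, against 11.2% of all genes higher, and 17 in CD4 cells, against 6.3%. RhDBCb alone gave 4 in CD8 cells, against 0.515%, and 5 in CD4 cells, against 1.59%. Before treatment alone, CD8 memory over CD8 naive gave 15 calls, against 3.27% of all genes in either direction, and CD4 memory over CD4 naive gave 4, against 1.11%. After treatment alone edgeR made 0 calls in CD8 cells, against 0.965% of all genes, with 19 of the 46 at an unadjusted p under 0.05, and 3 calls in CD4 cells, against 1.34%. The median after treatment was 1.70 in CD8 cells, where the naive group was 1 library, and 1.38 in CD4 cells.

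Whether the step from naive to memory differed between the lineages was tested as the CD8 step minus the CD4 step. None of the 46 was called by edgeR, against 0.0405% of all genes, 0.027% higher and 0.0135% lower, with 6 of the 46 at an unadjusted p under 0.05. The gene with the smallest p was CENPF, whose CD8 step exceeded its CD4 step by 1.03 (SE 0.29, adjusted p = 0.399), and DESeq2 called it with an adjusted p of 0.039. BIRC5 followed at -3.84 (SE 1.297, adjusted p = 0.531), then MCM5 at 1.47 (SE 0.63, adjusted p = 0.692), CENPE at 2.09 (SE 0.91, adjusted p = 0.702) and ZWINT at 1.33 (SE 0.58, adjusted p = 0.703). Of the 9 genes called in 1 lineage alone, DESeq2 called that difference for CENPF, and neither tool called it for the other 8.

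CD8 memory cells were set against CD4 memory cells next. CDCA8 and CENPF were higher in CD8 memory cells and 0 genes were lower, against 3.76% of all genes higher, 2.59% lower and 6.35% in either direction. CDCA8 had 15.0 and 13.6 CPM after and 12.8 and 14.6 CPM before treatment in CD8 memory cells, against 6.69 and 9.34 CPM after and 6.28 and 7.56 CPM before treatment in CD4 memory cells. Those groups did not overlap, and the log2 fold change of 0.92 (SE 0.19, edgeR adjusted p = 0.00739) was called in all 15 fits that left out 1 library. The CENPF estimate of 0.71 (SE 0.19, edgeR adjusted p = 0.0412) was called in 6 of the 15 and lost, among others, without either RhDBCb CD4 memory library. The median of the 46 was 0.38, with 37 estimates above 0. It was 0.79 before treatment alone, with 39 above 0, and 0.012 after treatment alone, with 24 above 0. Without the CD8 memory library of RhDBCb before treatment the median was -0.16 with 16 above 0, while CDCA8 and CENPF were still called, against 3.63% of all genes higher. In all libraries 3 genes had higher CD8 levels without overlap, CDCA8, KIF23 and HMMR, against 5.48% of all genes higher and 4.24% lower. Before or after treatment alone edgeR called 0 of the 46, against 0.965% and 1.07% of all genes, with 6 and 2 of the 46 at an unadjusted p under 0.05.

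Between naive cells of the lineages 1 of the 46 was called. CDCA8 was again higher in CD8 cells and 0 genes were lower, against 1.54% of all genes higher, 1.26% lower and 2.79% in either direction. It had 10.3 CPM after and 9.26 and 10.9 CPM before treatment in CD8 naive cells, against 4.17 and 6.81 CPM after and 5.72 and 5.52 CPM before treatment in CD4 naive cells. The groups did not overlap, the log2 fold change was 0.93 (SE 0.20, edgeR adjusted p = 0.0195), and the call was lost in 4 fits, those without any one of the 3 CD8 naive libraries or the CD4 naive library of RhM22 after treatment. Groups that did not overlap were seen for CDK1, PLK1 and CDCA8, higher in CD8 naive cells, and for RRM1, CENPF and ZWINT, lower there, against 4.34% of all genes higher and 3.96% lower. Before or after treatment alone edgeR called 0, against 0.81% and 0.378% of all genes, with 8 and 3 of the 46 at an unadjusted p under 0.05. CDCA8 was thus called between the lineages at both stages and not between memory and naive cells, for which its estimates were 0.41 (SE 0.20, adjusted p = 0.198) in CD8 and 0.42 (SE 0.19, adjusted p = 0.194) in CD4 cells.

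The comparison that the study was built on set T cells after treatment against those before. Over all subsets 0 of the 46 genes were called by edgeR, against 0.00675% of all genes, a single gene that was lower after treatment and is not one of the 46. At an unadjusted p under 0.05 there were 3 of the 46, and DESeq2 called 1, CCNE2, at a log2 fold change of -1.63 with an adjusted p of 0.013, where it called 1.73% of the genes that it gave an adjusted p. The median of the 46 was -0.13, with 30 estimates below 0, where all genes had a median of 0.01. Without the CD8 memory library of RhDBCb before treatment the median was 0.08 and 32 estimates were above 0.

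The 5 genes with the smallest p over all subsets were CCNE2 at -1.61 (SE 0.42, edgeR adjusted p = 0.311), CENPF at 0.49 (SE 0.14, adjusted p = 0.334), TPX2 at -0.68 (SE 0.27, adjusted p = 0.425), CDC20 at -0.77 (SE 0.38, adjusted p = 0.508) and CCNB1 at -0.23 (SE 0.13, adjusted p = 0.554). CENPF had 52.8 and 78.3 CPM after against 40.2 and 41.2 CPM before treatment in CD8 memory cells, and 43.4 and 35.2 CPM after against 26.8 and 22.8 CPM before treatment in CD4 memory cells. In naive cells it had 16.5 CPM after against 15.2 CPM before in CD8 cells of RhM22, and 19.0 and 33.1 CPM after against 18.8 and 20.3 CPM before in CD4 cells. CENPF was the 1 gene of the 46 that moved the same way in all 7 pairs, being higher after treatment in each, though by little in the naive cells of RhM22. CCNE2 was lower after treatment in 6 of 7 pairs, with RhM22 CD8 memory cells as the exception. CCNB1, CCNF, CDK1, TPX2 and NCAPG were also lower in 6 of 7 pairs, and E2F1 was higher in 6 of 7. The share of all genes that moved the same way in all 7 pairs was not counted.

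Within single subsets edgeR called 0 of the 46, against 0% of all genes in each of the 4 subsets. DESeq2 called 0 of the 46 as well. At an unadjusted p under 0.05 there were 6 of the 46 in CD8 memory, 2 in CD8 naive, 1 in CD4 memory and 3 in CD4 naive cells. In CD8 memory cells the smallest p belonged to MCM4 at -1.10 (SE 0.46, edgeR adjusted p = 1), MCM2 at -1.54 (SE 0.67, adjusted p = 1), CENPF at 0.67 (SE 0.30, adjusted p = 1), BUB1B at -2.75 (SE 1.24, adjusted p = 1) and CDC20 at -1.56 (SE 0.70, adjusted p = 1). There 42 of the 46 estimates were below 0, with a median of -0.81. Without the CD8 memory library of RhDBCb before treatment 35 were above 0 and the median was 0.29. In CD4 memory cells the smallest p was that of CENPF at 0.67 (SE 0.30, adjusted p = 1), before KIF20A at 1.96 (SE 1.16, adjusted p = 1), ASPM at -1.91 (SE 1.71, adjusted p = 1), CCNE2 at -0.72 (SE 0.71, adjusted p = 1) and TTK at 1.07 (SE 1.09, adjusted p = 1).

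In CD4 naive cells CCNE2 came first at -2.81 (SE 0.82, edgeR adjusted p = 0.897), with 0.0482 and 0.309 CPM after against 0.713 and 1.12 CPM before treatment. CCNB2 had 27 counts after and 0 before treatment, at least 5.92-fold higher for a floor of 3 counts over the before group. TTK followed at 2.75 (SE 1.19, adjusted p = 0.897), E2F1 at 2.24 (SE 1.08, adjusted p = 0.897) and TYMS at -1.90 (SE 0.96, adjusted p = 0.897). CD8 naive cells had 1 library after treatment. There CCNB2 had 0 counts after and 61 before treatment, at least 10.0-fold lower, but 51 of the 61 came from RhDBCb, which has no library after. TK1 had 0 counts after and 47 before, all 47 in RhDBCb, and BUB1B 0 after and 12 before. TYMS had an estimate of 2.63 (SE 1.34), on 8 counts after against 3 in RhM22 and 1 in RhDBCb before treatment. The estimate of RRM2 was -3.06 (SE 1.68), on 9 counts after against 36 in RhM22 and 283 in RhDBCb before treatment. In the RhM22 pair alone the log2 change of RRM2 was -1.80. The changes in CD8 memory, CD4 memory and CD4 naive cells were also compared with one another, and edgeR and DESeq2 called 0 of the 46 in the 3 differences, against 0% of all genes by edgeR. At an unadjusted p under 0.05 there were 0 of the 46 for CD8 memory minus CD4 memory, 4 for CD8 memory minus CD4 naive and 1 for CD4 memory minus CD4 naive cells. The smallest p belonged to BUB1B at -3.72 (SE 1.73, adjusted p = 1) in the first difference. In both differences against CD4 naive cells it belonged to CCNB2, which had 0 counts in CD4 naive cells before treatment, followed by E2F1 at -4.01 (SE 1.48, adjusted p = 1) for CD8 memory and CCNE2 at 2.09 (SE 1.07, adjusted p = 1) for CD4 memory cells.

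Each before-and-after pair of libraries moved by its own amount. In RhM22 the median log2 change over the 46 was 0.23 in CD8 memory, -0.13 in CD8 naive, 0.11 in CD4 memory and -0.20 in CD4 naive cells. In RhDBCb it was -1.54 in CD8 memory, -0.18 in CD4 memory and 0.62 in CD4 naive cells. The CD8 memory pair of RhDBCb therefore stood apart, with 44 of the 46 lower after treatment and 33 by more than a factor of 2, against 11.5% of all genes. Its CD4 naive pair leaned the other way, with 33 of the 46 higher and 15 at over 2 times the level before treatment, against 16.5% of all genes. The before library of that pair is the one with the fewest detected genes. Without it the median treatment estimate of the 46 in CD4 naive cells was -0.13, with 20 above 0, against 0.19 and 31 with it.

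**Figure D4:**
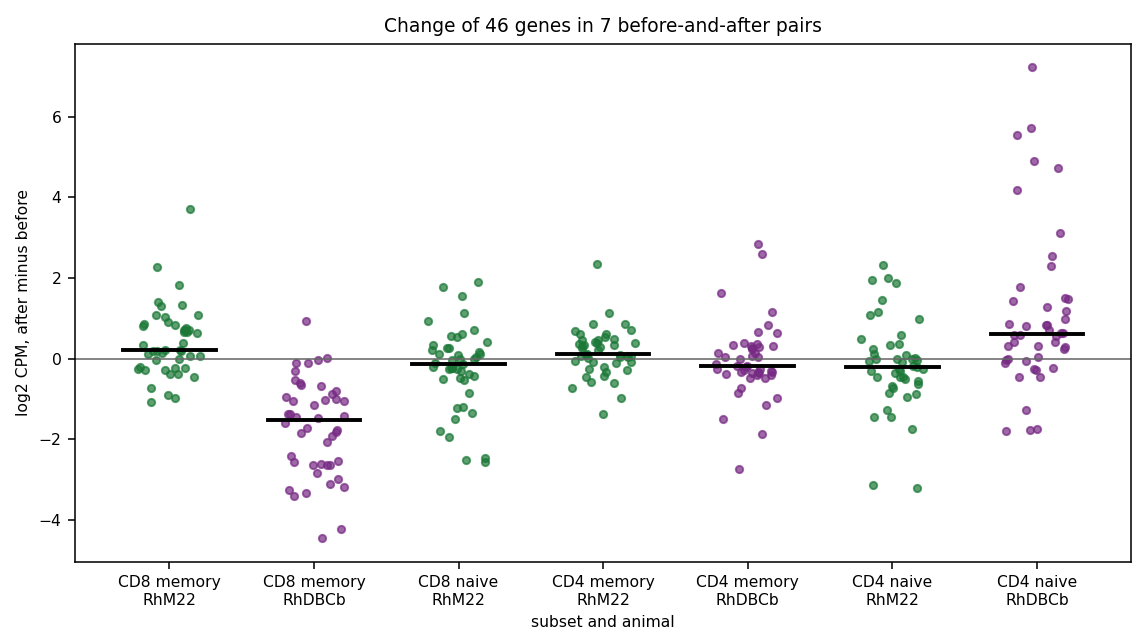
Log2 change after over before treatment of each of the 46 genes (1 point each) in the 7 pairs of libraries, with a black bar at the median. The CD8 memory pair of RhDBCb has a median of -1.54 with 44 genes below 0, and the other 6 medians lie between -0.20 and 0.62.

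The low estimates in CD8 memory cells were thus not seen without the library of RhDBCb before treatment. That library was above all 3 other CD8 memory libraries for 42 of the 46 genes, against 31.5% of all genes tested, and at more than 2 times their median for 34, against 13.8% of all genes. The median ratio was 3.77 for the 46 and 0.963 over all genes. The summed level of the 46 was 2262 CPM, against 944, 1054 and 986 CPM in CD8 memory cells of RhM22 after, RhDBCb after and RhM22 before treatment. All roles took part. The median ratio was 11.6 for both regulators of entry into replication, 6.88 for nucleotide supply, 4.01 for origin licensing and the fork and 4.18 for chromosome structure. It was 4.36 for mitotic kinases, 2.64 for spindle and motor genes, 6.04 for mitotic exit, 2.11 for G2/M cyclins with CDK1 and 2.09 for kinetochore and passenger genes.

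The genes with the highest ratios were PLK1 at 15.7, CCNB2 at 15.4, CCNE2 at 12.4, BIRC5 at 12.2, MKI67 at 11.1 and E2F1 at 10.9. MKI67 had 112 CPM there and 5.94 to 11.0 CPM in the other 3 libraries, and MCM5 had 208 CPM against 21.4 to 35.8 CPM. The 4 genes not above all 3 others were PCNA, CENPF, CDCA8 and HMMR, with ratios of 0.975, 0.781, 1.08 and 1.39. CENPF was thus no higher in the library in which MKI67, TOP2A and CDK1 peaked, and CCNB1 had a ratio of 1.04.

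Marker levels of that library differed as well. Memory markers summed to 9222 CPM, against 5438 to 5841 CPM in the other 3 CD8 memory libraries, and naive markers to 3956 CPM, against 5064 to 7000 CPM. The memory markers did not move together. ITGB1 was above the other 3, at 3866 CPM against 1098 to 1234 CPM. S100A4 was too, at 2213.5 CPM against 327 to 459 CPM, as was PRDM1 by little. ANXA1, CCL5 and KLRB1 were below the other 3, and GZMK and IL7R lay within their range. Of the naive markers, ACTN1 was above the other 3, at 156 CPM against 78.9 to 147 CPM. The 6 T cell activation markers summed to 1231 CPM, within the 1053.5 to 1712.5 CPM of the other 3, and CD38, ICOS and CD69 also lay within their range. IL2RA, the interleukin-2 receptor alpha chain, was above it at 60.8 CPM, against 17.2 to 26.8 CPM, as was TNFRSF4, or OX40, at 16.3 CPM, against 3.64 to 7.83 CPM. TNFRSF9, or 4-1BB, was below it at 0.390 CPM, against 0.964 to 3.10 CPM. The 4 markers of regulatory T cells, IL2RA among them, summed to 86.6 CPM, against 35.0 to 54.2 CPM, although FOXP3 itself had 0.967 CPM, against 1.48 to 8.18 CPM. CD4 and CD40LG summed to 20.3 CPM, against 3.69 to 8.57 CPM, and natural killer cell markers to 20.01 CPM, against 36.9 to 65.6 CPM. Monocyte markers summed to 5.92 CPM, against 10.4 to 40.2 CPM. Platelet markers summed to 3.44 CPM, against 13.5 to 38.5 CPM, and were low in all 4 libraries of RhDBCb before treatment, at 3.05 to 5.23 CPM against 13.5 to 96.0 CPM in the other 11 libraries. The 6 plasmablast markers summed to 0.339 CPM with MZB1 at 0, against 0.675 to 1.34 CPM, and erythroid markers to 0.119 CPM, against 0.280 to 0.534 CPM. T cell and CD8 lineage markers lay within the range of the other 3, and the B cell markers did so too, at 28.4 CPM. The part of these differences in the cell cycle genes was not tested.

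**Figure D5:**
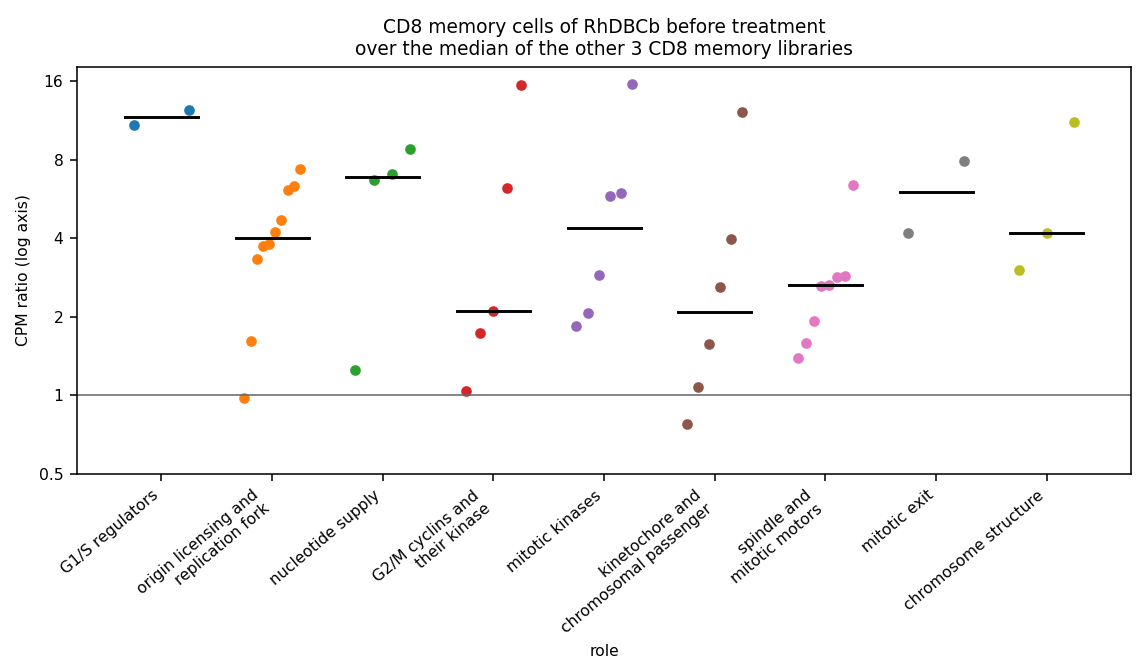
Ratio, on a log axis, of the CPM in the CD8 memory library of RhDBCb before treatment to the median CPM of the other 3 CD8 memory libraries, 1 point per gene, grouped by role with a bar at the median. The ratios run from 0.781 for CENPF to 15.7 for PLK1, and 34 of the 46 exceed 2.

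The animals were compared by the change in RhM22 minus the change in RhDBCb, over all subsets. BIRC5 was called, at 3.28 (SE 0.78, edgeR adjusted p = 0.0322), and 0 of the other 45 genes were, against 1.81% of all genes higher, 2.77% lower and 4.58% in either direction. The same model of all 15 libraries gave the change in RhM22 as 1.07 (SE 0.52, adjusted p = 0.771) and that in RhDBCb as -2.21 (SE 0.59, adjusted p = 0.0309). The next genes were GINS2 at 1.91 (SE 0.68, adjusted p = 0.127), MKI67 at 2.05 (SE 0.79, adjusted p = 0.159), CCNA2 at 1.82 (SE 0.79, adjusted p = 0.213) and PLK1 at 2.79 (SE 1.23, adjusted p = 0.217), none of which passed. The BIRC5 call was lost in 9 of the 15 fits that left out 1 library, among them the one without the CD8 memory library of RhDBCb before treatment.

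For the change in RhDBCb, taken from that model of all 15 libraries, 3 of the 46 were called, 1 higher and 2 lower after treatment. Over all genes 5.49% were higher, 4.62% lower and 10.1% called in either direction. BIRC5 fell, CENPF rose at 0.70 (SE 0.20, edgeR adjusted p = 0.0392) and CCNE2 fell at -2.08 (SE 0.59, adjusted p = 0.0407). The 3 calls were kept in 10, 6 and 5 of the 15 fits that left out 1 library, in that order, and BIRC5, CENPF and CCNE2 each lost the call without the CD8 memory library of RhDBCb before treatment. In RhM22 edgeR and DESeq2 called 0 of the 46, against 0.0608% of all genes by edgeR, all of them lower. At an unadjusted p under 0.05 there was 1 of the 46, and the smallest p was that of TPX2 at -0.96 (SE 0.35, edgeR adjusted p = 0.547), before CCNE2 at -1.15 (SE 0.55, adjusted p = 0.767), BIRC5, CENPF at 0.33 (SE 0.18, adjusted p = 0.836) and MCM6 at -0.29 (SE 0.17, adjusted p = 0.863). With 1 draw per animal and time, these changes compare single draws.

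Other genes of the cycle were counted beside the 46. Of 107 listed genes that work beside the 46, 104 were tested. In CD8 cells 32 of them were higher in memory and 1 was lower, with a median log2 fold change of 1.03, and in CD4 cells 20 were higher and 0 lower, with a median of 0.45. Over all genes 8.1% were higher and 5.39% lower in CD8 cells, and 5.22% higher and 3.16% lower in CD4 cells. Of the other mitosis genes 19 of 50 were higher in CD8 and 14 of 50 in CD4 memory cells. Of the other replication and repair genes 6 of 29 were higher in CD8 and 2 of 29 in CD4 cells, and of the pocket protein, E2F and DREAM genes 4 of 16 and 3 of 16. PTTG1, or securin, which guards the cohesion of sister chromatids, rose by 2.03 (SE 0.29, edgeR adjusted p = 0.000385) in CD8 and by 1.78 (SE 0.25, adjusted p = 0.000539) in CD4 cells. NCAPH, another condensin subunit, rose by 1.94 (SE 0.28, adjusted p = 0.000513) in CD8 cells. KIF4A, a chromosome motor, had 410 counts in CD8 memory and 1 in CD8 naive cells, a ratio of 379 with a 95% counting interval from 67.6 to 15000. In CD4 cells KIF4A and E2F8, a repressor of the E2F family, each had 313 counts in memory and 0 in naive cells, at least 94.6-fold higher.

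Of the genes of G1 entry, 3 of 9 were higher in CD8 memory than in CD8 naive cells and 1 was lower, with a median of 0.00, and in CD4 cells 1 of 9 was higher. CCND3, a D-type cyclin that acts in G1, was the 1 gene lower in CD8 memory cells, at -0.51 (SE 0.14, edgeR adjusted p = 0.0275). Between the memory subsets 3 of the 104 were higher in CD8 cells and 1 was lower, against 3.76% and 2.59% of all genes. The 3 were RACGAP1, a regulator of cytokinesis, at 1.32 (SE 0.23, edgeR adjusted p = 0.0024), MYC at 0.71 (SE 0.14, adjusted p = 0.00811) and E2F3 at 1.62 (SE 0.45, adjusted p = 0.0432). The lower one was CDKN1B, the cyclin-dependent kinase inhibitor p27, at -1.01 (SE 0.25, edgeR adjusted p = 0.0264). Between the naive subsets CDKN1A, the inhibitor p21, was lower in CD8 cells at -0.91 (SE 0.21, edgeR adjusted p = 0.025), where 1.26% of all genes were lower. After against before treatment edgeR called 0 of the 104 over all subsets, with 5 at an unadjusted p under 0.05, and 0 in any single subset or in RhM22. For the change in RhDBCb 3 were higher, KIFC1, LIN37 and POLD1, and 10 were lower, against 5.49% and 4.62% of all genes. The first of the 10 was CHAF1B, a histone chaperone of replication, at -1.08 (SE 0.19, edgeR adjusted p = 0.00504). MAD2L1 of the spindle checkpoint followed at -1.01 (SE 0.21, adjusted p = 0.0112) and CCNE1, or cyclin E1, at -1.11 (SE 0.26, adjusted p = 0.0175). The change in RhM22 minus that in RhDBCb was called above 0 for 6, against 1.81% of all genes, led by CHAF1B at 1.35 (SE 0.25, adjusted p = 0.0118). In the CD8 memory library of RhDBCb before treatment 83 of the 104 were above the other 3 CD8 memory libraries, against 31.5% of all genes. The median ratio of the 104 was 2.41, and that of the other mitosis genes was 3.68, close to the 3.77 of the 46.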

How the data were processed

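RNA was measured in 15 libraries, 1 per animal, subset and time. Per the labels' protocols, polyadenylated RNA was purified with an RNeasy Micro kit and amplified with SMART-Seq v4. That chemistry carries no strand mark, so a gene and an antisense partner cannot be told apart. The authors deposited expected counts per gene, unscaled, made by RSEM per the submitters' processing notes, which list cutadapt 1.18, STAR 2.7.6a, RSEM 1.3.3, Mmul_10 and rheMac10. The authors also deposited FPKM for 28331 genes, with a scaling step not given in the sources used here. Rounding the expected counts moved a library total by at most 26.1. Intervals and floors cover counting error only, because PCR copies were not marked by molecular identifiers.

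A filterByExpr filter by subset and time (minimum count 10) kept 14814 genes, which were scaled with TMM and tested by the quasi-likelihood F test of edgeR 4.0.16 in R 4.3.3, adjusted by Benjamini-Hochberg over these genes, with calls at 0.05. The SE is the absolute log2 fold change over the square root of F. Subset contrasts and the overall treatment effect used a model of subset, time and animal. Single subsets and their differences used 8 subset-by-time groups plus animal, and the animals' changes a model of subset and animal by time. All libraries shared 1 estimate of the spread. Changes within a draw or pair are differences of log2 CPM with a prior count of 2. Floors use 3 counts, and intervals are exact at 95%. Alternatives were DESeq2 1.42.0, its size factors in edgeR, no filter, a filter of 1 CPM in 4 libraries, no animal block, 1 time alone, limma 3.58.1 on log2(FPKM + 0.1) and leaving out each library. After seeing the data, fits without the 4 before libraries of RhDBCb and fits of each animal alone were added, as were mean levels without the CD8 memory library of RhDBCb before treatment. The code was tested on simulated data.

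The labels give each library's animal, which pairs the samples and was a block in the models. Before and after libraries of an animal deviated together from their group means, with correlations across genes of 0.296 in CD8 memory, 0.445 in CD4 memory and 0.317 in CD4 naive cells. The 46 genes, their roles, 107 other cycle genes and the marker lists were chosen with earlier results of these data known. By rule every called gene was named, or the 5 with the smallest p where none was called, and 20 genes were given in every library. CCND2, CDK2 and CHEK1 of the 107 were not analysed here. The gene tables used for names are of another assembly, so no positions or sequences are printed.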

Additional observations from a re-analysis of the deposited data

Results flagged for a closer look

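A level stands apart here when the gap between the highest or lowest library of a subset and its nearest neighbour exceeds Dixon's 95% share of the subset's whole range. The 3 subsets with 4 libraries were examined for 20 genes and for 2 summaries of all 46, and 21 of 66 sets stood apart. A chance rate of about 1 in 20 would need independent sets of normally distributed values. These sets share the same libraries, and gene levels were taken as CPM, not as logs, so the 21 cannot be set against that rate. Of the 21, 17 were the CD8 memory library of RhDBCb before treatment as the highest of its subset, out of 22 sets examined there. The gap made up 0.979 of the range for TOP2A, 0.966 for CCNE2, 0.952 for MKI67, 0.951 for BIRC5, 0.944 for E2F1, 0.931 for TK1, 0.923 for MCM5, 0.919 for MCM2 and 0.911 for RRM2. It made up 0.903 for TYMS, 0.889 for CCNA2, 0.877 for MCM7, 0.869 for MCM3, 0.866 for PLK1, 0.862 for UBE2C and 0.86 for CDC6. The summed level of the 46 genes gave 0.916. Their median log2 CPM, the other summary, did not stand apart, at 4.13 in that library against 1.80 to 2.43 in the remaining CD8 memory libraries.

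The other 4 lay in CD4 cells. CDK1 was low in the CD4 naive library of RhDBCb before treatment, with a gap of 0.952 of the range. PCNA was high in the CD4 naive library of RhM22 after treatment (0.841) and in the CD4 memory library of RhM22 before treatment (0.874), and MCM5 was high in the CD4 naive library of RhDBCb after treatment (0.861). The change in BIRC5 over all subsets differed between the animals by 3.28 on the log2 scale, RhM22 minus RhDBCb, by the test of that difference.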

How the results depend on the processing

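With 2 animals, 1 draw per animal and time and 1 CD8 naive library after treatment, the counts of called genes carry wide uncertainty, and genes with few counts, such as ASPM, BUB1B, CCNB2, HMMR and UBE2C, are limited by depth. Of the estimates recomputed for the named genes, 1960 kept their direction and side of the threshold. A further 251 kept the direction but lost the call, 2 gained a call and 11 changed sign.

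The animal was the replicate block. Without it 14 of the 46 were called in CD8 memory over CD8 naive, 10 in CD4 memory over CD4 naive, 1 in CD8 memory over CD4 memory and 0 in CD8 naive over CD4 naive cells, where the same fit called 6.35%, 3.39%, 2.59% and 1.32% of all genes. DESeq2 called 32 and 24 for memory over naive in CD8 and CD4 cells, against 21.0% and 14.7% of all genes. It called 1 for treatment over all subsets (CCNE2), against 1.73%, 3 for CD8 naive over CD4 naive (ZWINT, BIRC5 and CDCA8), against 6.29%, 1 for the CD8 step minus the CD4 step (CENPF), against 1.65%, and 2 for the animals' changes (GINS2 and BIRC5), against 11.5%. In RhDBCb alone the counts were 4 for CD8 memory over CD8 naive, 5 for CD4 memory over CD4 naive and 0 for both CD8 over CD4 contrasts. In RhM22 alone they were 1 for CD8 memory over CD4 memory and 3 for CD8 naive over CD4 naive, and without the 4 before libraries of RhDBCb 1 and 2. Before treatment alone the counts were 15, 4, 0 and 0, and after treatment alone 0, 3, 0 and 0, for CD8 memory over CD8 naive, CD4 memory over CD4 naive, CD8 memory over CD4 memory and CD8 naive over CD4 naive. The cause of these differences was not tested, beyond the smaller number of libraries in each such fit.

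Leaving out 1 library gave 15 to 25 calls for CD8 memory over CD8 naive, 14 to 24 for CD4 memory over CD4 naive, 1 to 2 for CD8 memory over CD4 memory and 0 to 3 for CD8 naive over CD4 naive. It gave 0 to 1 for the animals' changes, 0 to 3 for the change in RhDBCb and 0 in the other comparisons. The 3 naive calls came without the CD8 memory library of RhDBCb before treatment.

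None of the estimates that changed sign had been called. Without the 4 before libraries of RhDBCb the treatment estimates in CD8 memory cells were 0.11 for MCM4, 0.13 for MCM2 and 0.00936 for CDC20, and CD8 memory minus CD4 memory was 0.0219 for MCM4. Leaving out single libraries gave treatment estimates in CD8 memory cells of -1.85 to 0.12 for MCM4, -2.46 to 0.28 for MCM2 and -2.46 to 0.0174 for CDC20. For CD8 memory minus CD4 memory it gave -2.46 to 0.28 for MCM2 and -1.73 to 0.24 for MCM4. The range was -0.0212 to 2.90 for KIF20A in CD4 memory cells and -8.04 to 1.15 for KIF23 in CD4 memory minus CD4 naive cells. The sign changes in CD8 memory cells came without the library of RhDBCb before treatment. The treatment estimate of TK1 in CD8 naive cells without the library of RhDBCb before treatment could not be fitted.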
